A study of Caenorhabditis elegans with 6 samples.

Results

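The abu, idpp and pqn genes of Caenorhabditis elegans encode proteins of low sequence complexity. The members described here were every gene whose symbol in the WBcel235 annotation is abu, idpp or pqn followed by a number: 86 of the 46940 features in the count table, made up of 14 abu, 16 idpp and 56 pqn genes. All 86 are annotated as protein-coding. The samples were whole worms of the wild-type N2 strain, kept at 20 °C on nematode growth medium plates with no treatment. RNA from day 10 worms (3 libraries), the aged group, was compared with RNA from worms at L4 (3 libraries), the larval stage that precedes the adult moult. No young adult group was analysed here, so what changes at the adult moult and what changes as adults age cannot be told apart. The sources used here do not give the event from which day 10 was counted.

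The 3 names record how the genes were found. The abu genes ("activated in blocked unfolded protein response") were named from worms in which the unfolded protein response of the endoplasmic reticulum is blocked. The pqn genes are named for a prion-like domain rich in glutamine and asparagine, and the idpp genes are named as intrinsically disordered proteins expressed in the pharynx, the muscular feeding organ. The pharynx is lined by a cuticle that contains chitin, and this lining is shed and rebuilt at each larval moult. Many abu and pqn transcripts cycle with the moult, and abu-14 is needed for a normal pharyngeal lining and grinder, the part of the organ that crushes bacteria. The pqn name also covers proteins with unrelated jobs in RNA handling, cell death and gene control.

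The day 10 libraries held 23257607 to 25616846 counts and the L4 libraries 19576201 to 23972794. The 86 genes took 0.429%, 0.451% and 0.449% of the counts in the day 10 libraries, against 0.384%, 0.389% and 0.394% in the L4 libraries. No libraries of an age matched within sampling noise, and day 10 replicates 1 and 3 were the farthest apart, with a chi-square per degree of freedom of 41.2 over genes. No source names separate cultures for the libraries of an age, so a p-value reflects the spread among these libraries alone, which may be technical. Markers of body-wall muscle, epidermis, intestine, neurons, germ line and sperm were present at both ages.

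Day 10 worms had almost no abu transcripts and few idpp transcripts. Some pqn genes fell and others rose, in shares near those of all genes tested. The unit of level is CPM, the count of a gene relative to a library total adjusted by edgeR's TMM method. Summed over the 14 abu genes, the level was 3.38, 2.14 and 2.99 CPM in the day 10 libraries, against 661, 672 and 666 CPM in the L4 libraries. Summed over the 16 idpp genes, it was 14.9, 11.6 and 10.5 CPM in the day 10 libraries, against 209, 247 and 243 CPM in the L4 libraries. At day 10 idpp-16, the 1 idpp gene called higher, gave 10.2, 7.99 and 6.44 CPM of that sum. In L4 idpp-1 gave 133, 162 and 159.5 CPM of it, so at each age the sum rested mainly on 1 gene. The summed level of the 56 pqn genes went the other way. It was 4353, 4568 and 4268 CPM at day 10, against 2940, 3064 and 3037 CPM in L4. The largest parts of the day 10 sum were pqn-59 (mean 1307 CPM at day 10, against 502 in L4) and pqn-87 (742 against 385). Rises and falls of the other pqn genes partly cancelled in the sum, so it does not describe the family. The ages did not overlap for any of the 3 sums.

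Of the 86 genes, 74 had enough counts to be tested with edgeR's quasi-likelihood test, adjusted by Benjamini-Hochberg over all 15956 genes tested at a threshold of 0.05. All 10 tested abu genes were lower at day 10, with a median log2 fold change of −6.44. Of the 16 idpp genes, 14 were lower, 1 was higher and 1 did not pass, with a median of −4.09, or −4.03 with idpp-12, which had 0 counts at day 10, set at its bound. Of 48 tested pqn genes, 23 were lower, 19 were higher and 6 did not pass, with a median of −0.07. Most genes differ between these ages, so the background is high: 85.4% of all genes tested were called, 40.5% as higher and 45.0% as lower, with a median of −0.16. The pqn counts, 39.6% higher and 47.9% lower, are near that background.

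Large falls were counted separately. A fall of at least 10-fold was found for all 10 tested abu genes, 10 of 16 idpp genes and 8 of 48 tested pqn genes. Among all genes tested the share was 16.0%, and the pqn share was near it. With 1 library left out, 10 abu, 9 to 10 idpp and 8 to 9 pqn genes fell that far. They were not always the same genes, since pqn-10 passed 10-fold without day 10 replicate 3 (−3.58). At the edge stood idpp-8, with a log2 fold change of −3.33, or −2.74 without day 10 replicate 2 and −4.79 without replicate 3. No member was higher by at least 10-fold, against 6.54% of all genes tested; pqn-82 came closest. The levels of the ages did not overlap for the 47 genes called lower and for 19 of the 20 called higher, the exception being pqn-31. Of the 7 tested members that were not called, pqn-83 alone had no overlap. Among all genes tested, called or not, 87.6% had no overlap. The counts for called members alone cannot be set against that share. Over all tested members, called or not, the share without overlap was near it. The filter on low counts bears on these figures. Of the tested genes, 9 of 10 abu, 13 of 16 idpp and 5 of 48 pqn genes reached its minimum of 0.423 CPM in every library of L4 but not of day 10, so their entry into the test depended on their L4 level. The counts therefore describe the families and are no test of them.

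**Figure D1:**
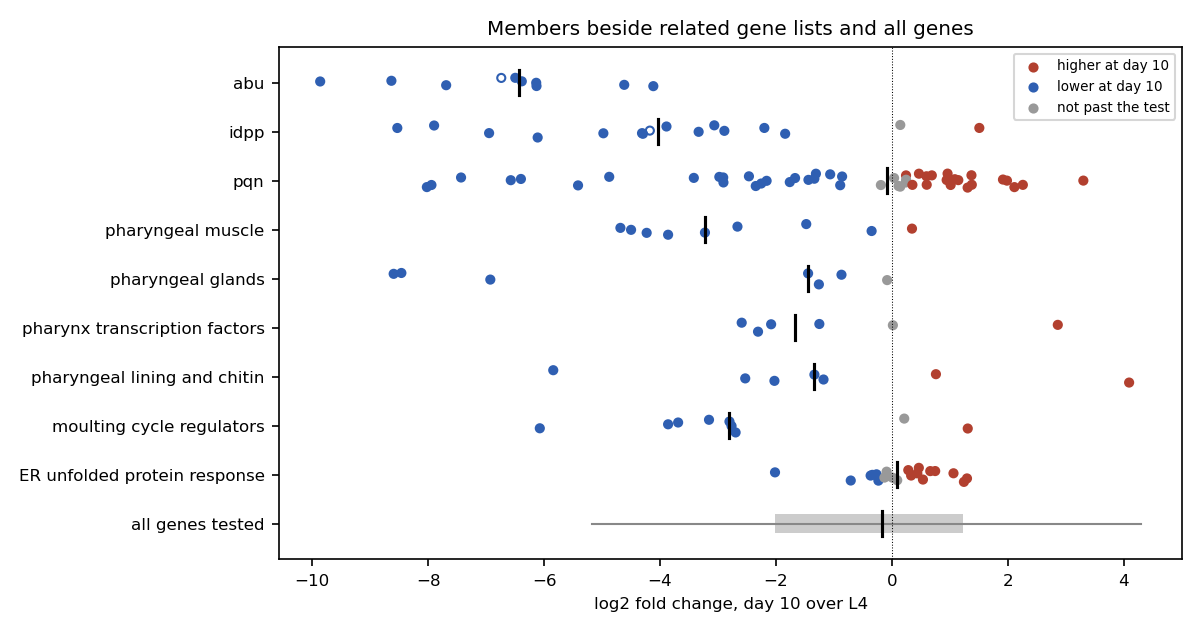
Log2 fold change, day 10 over L4 (x axis), of each tested abu, idpp and pqn gene and of each tested gene of 6 related lists (rows); colour gives the edgeR call, open points are the bounds of abu-1 and idpp-12, which had 0 counts at day 10, and black bars are medians. In the bottom row the grey box spans the 25th to 75th percentile of all genes tested (−2.01 to 1.23) and the line the 5th to 95th (−5.18 to 4.30); most abu genes lie left of that line, and the pqn genes run from left of it to 3.31.

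Among the abu genes, 3 made up most of the summed CPM of L4. The gene abu-13 (WBGene00004133, chromosome III, 6941888 to 6945898, minus strand) had 1.47, 1.25 and 1.35 CPM at day 10, against 279.8, 288 and 277.7 CPM in L4. Its log2 fold change was −7.69 (SE 0.05, edgeR adjusted p = 7.54e-11), where the SE is taken over libraries of an age on the log2(CPM + 0.5) scale and understates the error of genes below that level. The gene abu-14 (WBGene00004174, chromosome II, 9225186 to 9227214, minus strand), the member with the known role in the pharyngeal lining, had 0.796, 0.242 and 0.533 CPM at day 10, against 202.5, 214.5 and 215.6 CPM in L4. Its log2 fold change was −8.64 (SE 0.23, edgeR adjusted p = 6.85e-09). The gene abu-12 (WBGene00004127, chromosome X, 450446 to 457610, minus strand) had 0.119, 0.202 and 0.0820 CPM at day 10, against 135, 127 and 129 CPM in L4, a log2 fold change of −9.86 (SE 0.08, edgeR adjusted p = 2.66e-10). For all 3 genes the lowest L4 library lay far above the highest day 10 library.

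The other tested abu genes were less abundant in L4 and fell to within a few counts of 0. At day 10 abu-11 had 0.358, 0.161 and 0.246 CPM, against 17.7, 18.04 and 19.2 CPM in L4, a log2 fold change of −6.13 (SE 0.11, edgeR adjusted p = 3.33e-08). The day 10 level of abu-8 was 0.279, 0.0403 and 0.0820 CPM, against 9.85, 9.77 and 9.91 CPM in L4, a log2 fold change of −6.14 (SE 0.16, edgeR adjusted p = 5.68e-07), or −7.19 without day 10 replicate 1. No read of abu-1 was counted at day 10, against 4.01, 4.95 and 3.87 CPM in L4. With 3 counts over the pooled day 10 libraries as the floor, abu-1 was at least 106.9-fold lower at day 10.

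For the least abundant abu genes only ratios with counting intervals can be given. The neighbours abu-6 and abu-15 had 1 and 2 counts in all at day 10, against 107 and 170 counts in L4. The L4 level of abu-6 was 126.1 times its day 10 level (exact 95% counting interval 22.2 to 5028), and that of abu-15 was 100.2 times (27.3 to 834). All of those day 10 counts lay in replicate 3, so the abu median, which falls between these genes, was −7.96 without that library. Also lower were abu-7, with a log2 fold change of −4.12, and abu-10, with −4.62, or −5.67 without day 10 replicate 1. These intervals and floors cover counting error only.

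The idpp genes were led by idpp-1 in L4. This gene (WBGene00020550, chromosome III, 740682 to 742941, plus strand) had 0.477, 0.363 and 0.369 CPM at day 10, against 133, 162 and 159.5 CPM in L4, a log2 fold change of −8.53 (SE 0.11, edgeR adjusted p = 5.72e-10). The day 10 level of idpp-5 was 0.159, 0.202 and 0.0410 CPM, against 15.3, 18.3 and 18.3 CPM in L4, a log2 fold change of −6.95 (SE 0.14, edgeR adjusted p = 7.09e-08). At day 10 idpp-4 had 0, 0.0403 and 0.123 CPM, against 13.6, 15.4 and 13.5 CPM in L4, a log2 fold change of −7.90 (SE 0.11, edgeR adjusted p = 1.44e-07), or −9.09 without day 10 replicate 3. All 3 were below 1 CPM in each day 10 library.

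Smaller falls followed. The level of idpp-2 was 0.597, 0.565 and 0.533 CPM at day 10, against 8.78, 14.1 and 11.01 CPM in L4, a log2 fold change of −4.31 (SE 0.19, edgeR adjusted p = 4.75e-07). The level of idpp-7 was 0.318, 0.282 and 0.451 CPM at day 10, against 7.61, 6.83 and 6.49 CPM in L4, a log2 fold change of −4.29 (SE 0.11, edgeR adjusted p = 3.92e-07). No read of idpp-12 was counted at day 10, and it was at least 18.1-fold lower there than in L4. The smallest fall among the 14 was that of idpp-6, with a log2 fold change of −1.84 (SE 0.18, edgeR adjusted p = 0.00385).

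The gene idpp-16 (WBGene00009383, chromosome V, 11604482 to 11606524, minus strand) was the exception in its family. It had 10.2, 7.99 and 6.44 CPM at day 10, against 3.45, 2.65 and 2.56 CPM in L4, and the ages did not overlap. Its log2 fold change was 1.51 (SE 0.22, edgeR adjusted p = 0.000243). It overlaps dhs-20 in the annotation, a member of the short-chain dehydrogenase family, on the same strand, so strand would not separate the reads of the shared stretch. The level of idpp-14 was 1.43, 0.726 and 0.328 CPM at day 10, against 1.01, 0.597 and 0.654 CPM in L4, with full overlap of the L4 range, and it did not pass the test (log2 fold change 0.15, SE 0.38, edgeR adjusted p = 0.801).

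**Figure D2:**
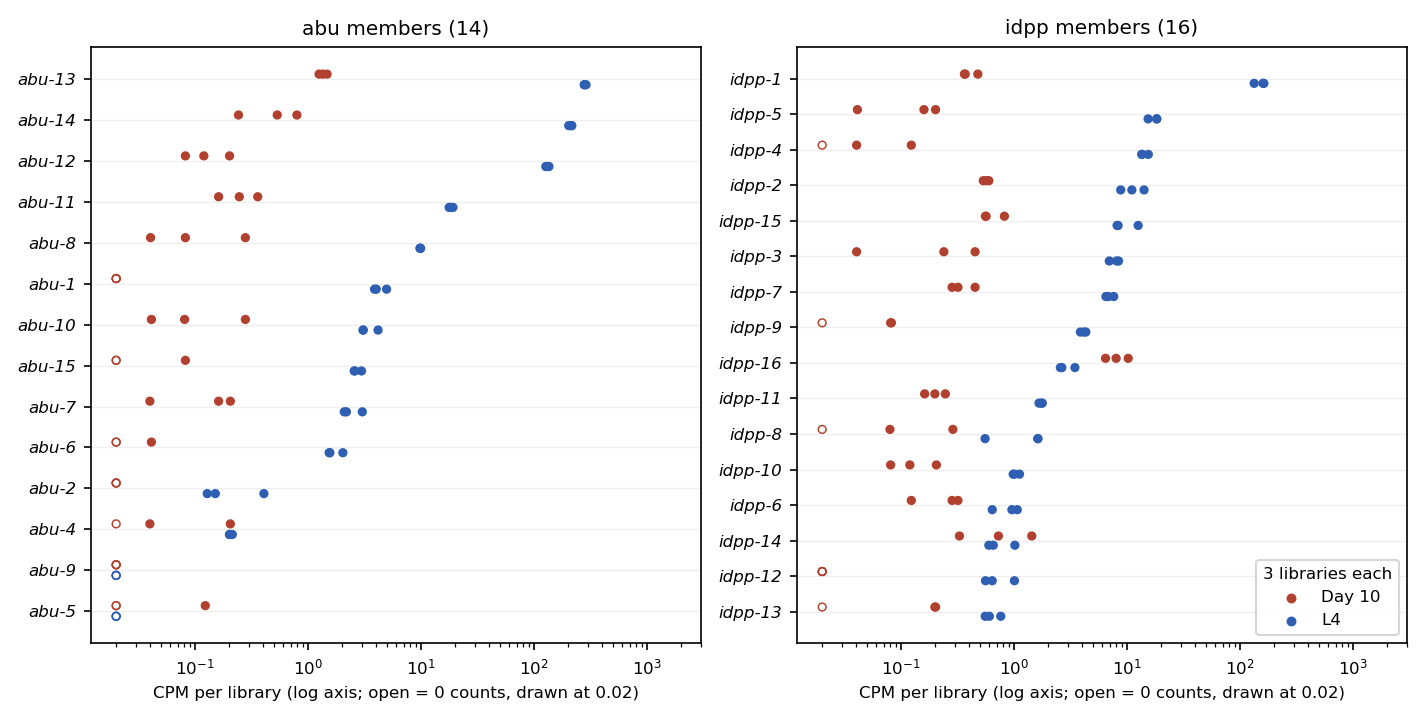
CPM in each library (x axis, log scale) for the 14 abu genes (left) and 16 idpp genes (right), with 3 day 10 libraries above 3 L4 libraries in each row; open circles mark 0 counts. The day 10 points of the 10 tested abu genes stay below 1.5 CPM, and idpp-16 is the gene whose day 10 libraries all lie above L4.

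Among the 48 tested pqn genes, 8 fell by at least 10-fold, a share near the 16.0% of all genes tested. At the head stood pqn-32 (WBGene00004120, chromosome II, 13108019 to 13110169, plus strand), with 1.67, 1.53 and 1.804 CPM at day 10, against 427, 442 and 438 CPM in L4. Its log2 fold change was −8.02 (SE 0.05, edgeR adjusted p = 6.43e-11). The gene pqn-74 (WBGene00004156, chromosome IV, 13329507 to 13331406, minus strand) had 0.836, 0.686 and 0.738 CPM at day 10, against 68.2, 74.3 and 74.6 CPM in L4, a log2 fold change of −6.58 (SE 0.07, edgeR adjusted p = 6.62e-10). The gene pqn-22 (WBGene00004112, chromosome IV, 6019672 to 6033639, minus strand) had 6.01, 4.36 and 3.65 CPM at day 10, against 203.9, 197 and 198 CPM in L4, a log2 fold change of −5.42 (SE 0.19, edgeR adjusted p = 1.85e-08). In each case the replicates lay close together within an age and far apart between ages.

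Day 10 levels of pqn-26 were 0.159, 0.363 and 0.697 CPM, against 35.9, 35.0 and 32.9 CPM in L4, a log2 fold change of −6.40 (SE 0.25, edgeR adjusted p = 1.14e-07), or −7.0 without day 10 replicate 3. Day 10 levels of pqn-13 were 2.35, 2.78 and 2.09 CPM, against 68.0, 72.7 and 72.0 CPM in L4, a log2 fold change of −4.88 (SE 0.10, edgeR adjusted p = 3.02e-09). All 4 day 10 counts of pqn-63 lay in replicate 2, so its levels were 0, 0.161 and 0 CPM at day 10, against 11.3, 9.68 and 9.76 CPM in L4. Its log2 fold change was −7.43 (SE 0.15, edgeR adjusted p = 1.21e-06), and without day 10 replicate 2 it was at least 168.7-fold lower at day 10.

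The remaining members lower by at least 10-fold were pqn-67, with a log2 fold change of −3.42, and pqn-2, whose L4 level was 349 times its day 10 level from a single day 10 count, in replicate 2 (exact 95% counting interval 62.2 to 13830). Together the 8 genes had 11.9, 10.9 and 9.72 CPM at day 10, against 827, 846 and 838 CPM in L4. Another 15 pqn genes were lower by less than 10-fold, between −2.98 and −0.86 on the log2 scale. The first limit is pqn-10, at −2.38 without day 10 replicate 1 and −3.58, past 10-fold, without replicate 3. The summed level of the 15 was 68.0, 66.1 and 65.1 CPM at day 10, against 231, 239 and 239 CPM in L4. These figures describe groups formed by the test itself.

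The 19 pqn genes that rose had a median level per length of 50.5 FPKM at day 10, against 17.7 FPKM in L4, where FPKM is the count per length and depth. The gene pqn-59 (WBGene00004143, chromosome I, 379071 to 381902, minus strand), the worm homologue of human UBAP2L, a stress granule protein, had 1303, 1383 and 1236 CPM at day 10, against 483, 515 and 509 CPM in L4. Its log2 fold change was 1.38 (SE 0.06, edgeR adjusted p = 7.44e-08). The gene pqn-41 (WBGene00004128, chromosome III, 1905958 to 1939570, plus strand) encodes a glutamine-rich protein needed for the death of the male linker cell. It had 209.8, 234 and 204.5 CPM at day 10, against 75.1, 86.1 and 88.9 CPM in L4, a log2 fold change of 1.37 (SE 0.10, edgeR adjusted p = 4.54e-07). The level of pqn-87 was 725.5, 780.5 and 720.7 CPM at day 10, against 369.6, 397 and 389 CPM in L4, a log2 fold change of 0.95 (SE 0.05, edgeR adjusted p = 5.02e-07).

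Larger folds were seen in 5 other pqn genes. The largest was that of pqn-82 (WBGene00004163, chromosome III, 1849047 to 1852473, plus strand), with 54.8, 64.0 and 53.6 CPM at day 10, against 5.48, 6.57 and 5.33 CPM in L4, a log2 fold change of 3.31 (SE 0.12, edgeR adjusted p = 2.70e-08). The level of pqn-20 was 378, 373.5 and 302 CPM at day 10, against 71.7, 73.5 and 74.7 CPM in L4, a log2 fold change of 2.26 (SE 0.11, edgeR adjusted p = 4.27e-08). The level of pqn-65 was 187, 211 and 212.6 CPM at day 10, against 47.4, 47.6 and 46.0 CPM in L4, a log2 fold change of 2.11 (SE 0.06, edgeR adjusted p = 1.14e-08). No library of an age crossed into the range of the other age for these 3 genes.

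The same held for the remaining 2. At day 10 pqn-51 had 279.6, 266.8 and 276.9 CPM, against 66.8, 67.6 and 73.3 CPM in L4, a log2 fold change of 1.99 (SE 0.05, edgeR adjusted p = 8.06e-09). At day 10 pqn-15 had 13.2, 17.0 and 18.5 CPM, against 3.86, 4.31 and 4.73 CPM in L4, a log2 fold change of 1.92 (SE 0.16, edgeR adjusted p = 7.94e-06). Of the 19 higher pqn genes, 11 were higher by at least 2-fold, and the smallest change was that of pqn-52, with a log2 fold change of 0.24. The call of pqn-31 (log2 fold change 0.60, edgeR adjusted p = 0.0407) was lost when day 10 replicate 1 or 2 or any L4 library was left out. With upper-quartile scaling, which shifts the median of all genes to −0.62, 14 pqn genes were higher and 25 lower, and the signs of pqn-52 (−0.20) and pqn-96 (−0.09) turned.

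Germ line markers moved in the same direction as these pqn genes. All 4 of 4 markers (glp-1, gld-1, pgl-1 and cbd-1) were higher at day 10, with summed levels of 3902 to 5014 CPM in the day 10 libraries, against 864 to 877 CPM in the L4 libraries, and none was at 0. The summed level of the early embryo markers was also higher, at 7.08 to 13.5 CPM at day 10, against 0.0508 to 0.213 CPM in L4. Most of the day 10 sum was pes-10, with 6.17, 10.8 and 12.1 CPM. Of the 4 on that list, end-3 and pes-10 were tested and called higher, and pes-10 was at 0 counts in L4. Not tested were end-1, with 14 counts at day 10 and 2 in L4, and med-1, with 1 count at day 10 and 3 in L4. The part of either list in the pqn result was not tested.

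**Figure D3:**
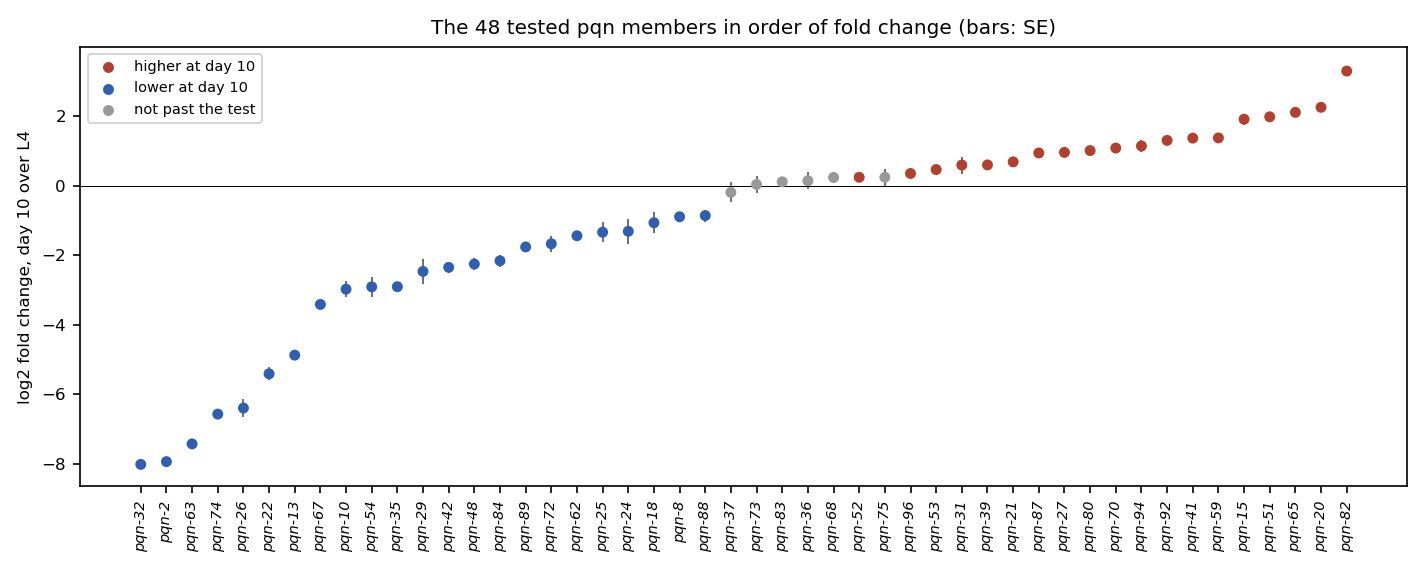
Log2 fold change, day 10 over L4 (y axis), of the 48 tested pqn genes in order, with bars for the SE; red marks genes higher at day 10, blue genes lower and grey genes that did not pass edgeR's test. The falls reach −8.02 for pqn-32, while the highest value is 3.31 for pqn-82; the point of pqn-2 rests on 1 count at day 10.

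Of the 6 tested pqn genes that did not pass, 4 had a mean of at least 5 CPM. The gene pqn-75, which is expressed in the gland cells of the pharynx, had 12.97, 13.03 and 8.24 CPM at day 10, against 10.4, 10.4 and 8.05 CPM in L4. The ages overlapped (log2 fold change 0.25, SE 0.24, edgeR adjusted p = 0.291), and without day 10 replicate 3 it was called higher, with 0.46. The levels of pqn-68 were 8.47, 6.37 and 8.16 CPM at day 10, against 7.21, 6.53 and 5.73 CPM in L4 (log2 fold change 0.24, SE 0.15, edgeR adjusted p = 0.227). The levels of pqn-73 were 7.002, 7.02 and 4.10 CPM at day 10, against 5.99, 5.93 and 5.73 CPM in L4 (log2 fold change 0.04, SE 0.24, edgeR adjusted p = 0.879).

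The fourth, pqn-83, had 128, 130.4 and 124.8 CPM at day 10, against 113.6, 124.6 and 115.6 CPM in L4. Its lowest day 10 library lay just above its highest L4 library, and the difference did not pass (log2 fold change 0.12, SE 0.04, edgeR adjusted p = 0.0777). It was called higher in 6 alternatives, DESeq2 among them, and called lower with upper-quartile scaling (−0.33). On simulated counts with 3 libraries a group and 1 spread shared by all genes, the test recovered 40% of 1.5-fold changes and 98% of 2-fold changes. Real genes differ in spread, and pqn-52 was called at 1.185-fold, so these shares do not describe single genes such as pqn-83. Small differences may still be missed.

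Compared per length, as FPKM, the order of the genes changed between the ages. At day 10 the highest was pqn-59, with 567 ± 19.1 FPKM (SD, n = 3), followed by pqn-52 (166 ± 17.4), pqn-51 (165.6 ± 8.34), pqn-70 (159 ± 15.8), pqn-87 (147 ± 5.85) and pqn-53 (114 ± 5.25). In L4 the highest were pqn-32, with 221.7 ± 1.84 FPKM (SD, n = 3), pqn-59 (216 ± 5.10), abu-13 (152 ± 1.42), abu-14 (144 ± 3.97) and pqn-52 (138 ± 3.25). The day 10 levels of pqn-52, pqn-51 and pqn-70 differed by less than their SDs, and the L4 gap between pqn-32 and pqn-59 was about as large as the SD of pqn-59. All 6 members at or above 100 FPKM at day 10 were pqn genes, whereas abu-13 and abu-14 were among the 5 above that level in L4.

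A level of at least 1 FPKM was reached by 0 of 14 abu genes at day 10, against 10 of 14 in L4. For idpp genes these numbers were 1 of 16 at day 10, against 14 of 16 in L4, and for pqn genes 36 of 56, against 47 of 56. On the CPM scale, which is not corrected for length, pqn-59 and pqn-87 together took 46.4 ± 0.763% of the members' summed level at day 10, against 22.7 ± 0.267% in L4 (SD, n = 3). The abu genes took 0.0647 ± 0.0160% at day 10, against 17.0 ± 0.268% in L4.

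**Figure D4:**
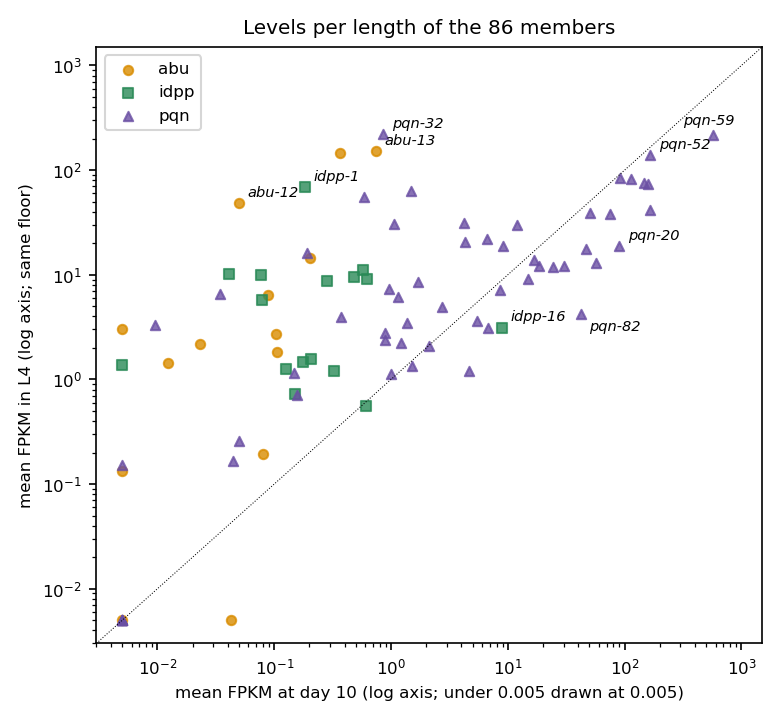
Mean FPKM at day 10 (x axis) and in L4 (y axis), both on log scales, of the 86 members, with the dotted line marking equal levels and values under 0.005 drawn at 0.005. The abu and idpp genes lie above the line, apart from abu-5, idpp-14 and idpp-16 and genes at 0 at both ages, while abundant pqn genes such as pqn-59, pqn-20 and pqn-82 lie below it.

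The families differ in gene structure. In the annotation the abu genes have a median coding length of 1174.5 nt and 2.5 exons, the idpp genes 879 nt and 4 exons, and the pqn genes 1425 nt and 7 exons; protein-coding genes in the count table have medians of 993 nt and 5 exons. Of members with at most 3 exons, 18 were tested, of which 14 were lower and 3 higher. Of members with 4 to 9 exons, 35 were tested, of which 23 were lower and 9 higher. Of members with at least 10 exons, 21 were tested, of which 10 were lower and 8 higher. Among all genes tested, 45.0% were lower and 40.5% higher. These classes hold different shares of the families, and the tested abu genes were lower in every class. Of 7 tested pqn genes with at most 3 exons, 4 were lower and 2 higher. Within the pqn family, genes called higher and genes called lower both had a median of 8 exons.

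Several members lie side by side, and 18 have another member within 10000 bp. On chromosome V abu-1 and pqn-2 stand 616 bp apart in opposite orientation with equal coding lengths of 1275 nt, and both were called lower, with 0 and 1 counts at day 10, against 272 and 296 counts in L4. Also on V, abu-15 and abu-6 lie 771 bp apart with equal coding lengths of 1164 nt. Where near-identical copies share reads, the authors' counting could split or drop them, and the likeness of these sequences was not analysed here, so values of such pairs are uncertain.

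The 12 members that were not tested were abu-2, abu-4, abu-5, abu-9, pqn-16, pqn-57, pqn-71, pqn-76, pqn-78, pqn-79, pqn-90 and pqn-91. None had more than 6 counts in the pooled day 10 libraries or 17 in the pooled L4 libraries. Of these, 6 had 0 counts in all 6 libraries (abu-9, pqn-57, pqn-76, pqn-78, pqn-79 and pqn-90), and each of the 6 has another member within 11000 bp. The genes pqn-76, abu-5, pqn-78 and pqn-79 share a coding length of 1005 nt within IV:15579086-15596645 and had 3 counts together. Genes abu-9 and pqn-57 on X, 1122 bp apart, likewise share a coding length of 1134 nt. A count of 0 here does not show that these genes were silent.

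A further limit is overlap with other genes, which touches 20 members, among them abu-13 (with F57B9.3), idpp-1 (pat-12), pqn-32 (rict-1), pqn-26 (trt-1), pqn-59 (R119.3), pqn-41, pqn-51 and pqn-87. Overlap was taken from the start and end of each gene, so a shared stretch need not hold exons of both genes. For 15 of the 20 the overlap is with the opposite strand alone. The sources used here do not say whether reads were counted by strand, so reads of any shared exons cannot be told apart. For the other 5 (idpp-8, idpp-16, pqn-41, pqn-51 and pqn-59) a partner lies on the same strand, where strand would not separate reads of shared exons. Among members without such an overlap, 9 of the tested abu genes were lower, 11 idpp genes were lower and none higher, and 17 pqn genes were lower and 14 higher.

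In each pharynx list most tested genes were lower at day 10, against 45.0% lower among all genes tested. Of 9 genes of pharyngeal muscle, 8 were lower and 1, the actin gene act-2, was higher, with a median log2 fold change of −3.23. The pharyngeal myosin gene myo-2 had 19.5, 18.03 and 16.9 CPM at day 10, against 241, 276.7 and 273 CPM in L4, a log2 fold change of −3.86 (SE 0.09, edgeR adjusted p = 2.01e-09). The paramyosin gene unc-15, which body-wall muscle also expresses, had a log2 fold change of −4.68. That of act-2 was 0.35, and −0.10 and not called with upper-quartile scaling. Of 7 tested gland genes 6 were lower, among them phat-4 (log2 fold change −8.46) and phat-1, whose L4 level was 468 times its day 10 level from 2 day 10 counts (exact 95% counting interval 129 to 3871).

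Of 6 tested pharynx transcription factor genes, 4 were lower and 1, eya-1, was higher. The gene pha-4, a FoxA factor that sets pharynx identity, had 7.60, 8.67 and 10.3 CPM at day 10, against 23.8, 19.2 and 20.3 CPM in L4, a log2 fold change of −1.25 (SE 0.15, edgeR adjusted p = 5.64e-05). The log2 fold change of peb-1 was −2.59, and tbx-2 did not pass (0.02, edgeR adjusted p = 0.892). Of 7 genes of the pharyngeal lining and chitin, 5 were lower, among them the pharyngeal chitin synthase chs-2 (−2.53) and chtb-1 (−5.84, or −6.60 without day 10 replicate 3). The 2 that were higher were fbn-1 (0.76, and not called with upper-quartile scaling) and the eggshell chitin synthase chs-1 (4.09).

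Beside the abu, idpp and pqn falls stand the markers of pharyngeal muscle cells. All 5 of 5 (myo-1, myo-2, tnc-2, tnt-4 and ceh-22) were lower at day 10, with summed levels of 37.0 to 41.1 CPM in the day 10 libraries, against 569 to 637 CPM in the L4 libraries, and none was at 0. All of them are also on the pharyngeal muscle or transcription factor lists above, so they are no separate set. The higher act-2 of the muscle list is not among them. Log2 fold changes of the 5 markers ran from −4.50 to −2.08. With abu-1 and idpp-12 taken at their bounds, a value below −4.50 was found for 9 of 10 tested abu genes. It was also found for 5 of 16 idpp genes and 7 of 48 tested pqn genes. That cut is the value of 1 gene, myo-1. Of all genes tested, between 5% and 25% lay below it, since the 5th percentile was −5.18 and the 25th −2.01. The fall was not limited to pharynx markers. All 4 body-wall muscle markers were lower (summed 247 to 290.6 CPM at day 10, against 8773 to 9776 CPM in L4), as were all 3 sperm markers (5.53 to 8.94 CPM, against 256 to 258 CPM) and all 4 intestine markers (486 to 797.5 CPM, against 3232 to 3415 CPM). Of 5 epidermis markers 3 were lower and 1 higher (184 to 228 CPM, against 1487 to 1710 CPM), and of 4 neuron markers 1 was lower and 2 higher (282 to 308 CPM, against 183 to 191 CPM). None of these was at 0. In bulk RNA, fewer cells of a type and less RNA per cell cannot be told apart, and the part of any of these markers in the result was not tested.

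Regulators of the moulting cycle were mostly lower. Of 9 genes, 7 were lower and 1, nhr-25 (log2 fold change 1.31), was higher. The gene lin-42, the worm homologue of the clock gene period, had 9.95, 10.9 and 9.02 CPM at day 10, against 590.5, 722.7 and 704 CPM in L4, a log2 fold change of −6.08 (SE 0.12, edgeR adjusted p = 1.04e-09). The gene myrf-1, a membrane-bound transcription factor once named pqn-47, had a log2 fold change of −2.77 (SE 0.10, edgeR adjusted p = 1.20e-08); its symbol puts it outside the pqn genes counted above. The gene nhr-23, a nuclear receptor that drives the moult, did not pass (0.21, edgeR adjusted p = 0.0809).

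The unfolded protein response, from which the abu name comes, showed no common direction. Of 21 genes of this response in the endoplasmic reticulum, 10 were higher, 6 lower and 5 did not pass, with a median log2 fold change of 0.09. The chaperone gene hsp-4, a worm BiP, had 532, 469 and 469 CPM at day 10, against 403, 387 and 377 CPM in L4, a log2 fold change of 0.33 (SE 0.07, edgeR adjusted p = 0.00121), which turned to −0.12 and was not called with upper-quartile scaling. The log2 fold change of xbp-1, which encodes the factor activated by IRE-1, was −0.23 (edgeR adjusted p = 0.0065), or −0.07 and not called with DESeq2's size factors, and that of ced-1, an engulfment receptor, was 1.24 (edgeR adjusted p = 2.28e-07). Protein disulfide isomerase pdi-2 (−2.02) and calreticulin crt-1 (−0.34) were lower. With upper-quartile scaling 5 of the 21 were higher and 12 lower.

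In the authors' deposited table, 80 members had an adjusted p and 67 were under 0.05, against 54.6% of the 24922 genes with an adjusted p. Those 24922 include genes that edgeR's filter on low counts left out, so the 54.6% is not a like background for the members. With edgeR, 67 of 74 tested members were called, against 85.4% of the 15956 genes tested. By direction, 11 abu genes were lower in the authors' deposited table, 14 idpp genes lower and 1 higher, and 21 pqn genes lower and 20 higher. Of the 67 members called with edgeR, 65 were also under 0.05 in the authors' deposited table, all 65 in the same direction.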

How the data were processed

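The authors deposited raw read counts per gene, for which the submitters' processing notes name the tools CASAVA 1.8, HISAT2 and HTSeq; build, annotation and strand setting are not given in the sources used here. The deposited FPKM equal those counts divided by 1 gene length and by the total of the library, within a relative difference of 8.3e-08. The authors' deposited comparison holds group means, a signal of scaled counts, used for direction only, and their p-values and adjusted p-values. Symbols and coordinates came from Ensembl release 115 of WBcel235, which need not be the build counted on; 46603 of the features were found there.

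Counts were fitted over all genes with edgeR 4.0.16 in R 4.3.3 (TMM, filterByExpr at its defaults, robust quasi-likelihood fit, Benjamini-Hochberg at 0.05), as day 10 over L4, with samples grouped by title. DESeq2 1.42.0, limma 3.58.1 on log2(FPKM + 0.1) or log2(FPKM + 1), other scalings and filters, a replicate block and each library left out were alternatives. The SE used log2(CPM + 0.5); bounds used 3 counts over the pooled libraries of an age. On simulated counts 15886 genes were tested, with 5 false calls.

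The members and lists were chosen with earlier results of these data known. Named by rule were the 6 abu and 6 idpp genes with the highest mean FPKM, the 6 largest pqn changes each way with at least 5 CPM, fixed genes, members at 5 CPM that did not pass, and the 2 most abundant genes of each list; other genes were named after their values were seen. Symbols cda-1 and cda-2 of the lining list were not matched. Protein and promoter sequences were not used here, so protein composition classes and motifs were not analysed.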

Additional observations from a re-analysis of the deposited data

How the results depend on the processing

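Of the 67 called members, 62 kept their direction and their call in each alternative that tested them: 56 in all 17 with a fit, and 6 (idpp-6, idpp-8, idpp-10, idpp-12, idpp-13 and pqn-84) in the 16 other than the 1 CPM filter; pqn-31, pqn-39, pqn-53 and pqn-96 lost the call in at least 1, and pqn-52 and pqn-96 turned sign with upper-quartile factors. The 10 lower abu genes were 10 in every alternative on the same genes. The replicate numbers did not pair the samples (correlations of deviations 0.020 to 0.024, under the 0.1 required); with the replicate block the counts were 10 abu lower, 14 idpp lower and 1 higher, 23 pqn lower and 19 higher, and 7042 of all genes lower and 6355 higher, with a median of −0.18. Medians moved with the scale. The abu median was −6.60 with DESeq2, −6.30 with its size factors, −6.85 with upper-quartile factors, −6.17 with no filter, −5.08 and −2.39 with limma on log2(FPKM + 0.1) and log2(FPKM + 1), and −7.96 to −5.95 with a library left out. The idpp median was −3.95, −3.93 and −4.54 with the same 3 changes of scaling, −4.66 at 1 CPM in 3 libraries (9 lower of 10 tested), −3.75 and −1.92 with limma, and −4.37 to −3.96 with a library left out. The pqn median was 0.09 with DESeq2 and with its size factors, −0.53 with upper-quartile factors, 0.02 at 1 CPM, −0.89 with no filter and −0.21 to 0.02 with a library left out (0.02 without day 10 replicate 2). In members with no overlapping gene, an alternative chosen after seeing the data, the idpp and pqn medians were −4.29 and −0.52, with 0 idpp genes higher (all 11 tested were lower); with 0 counts set to bounds, also chosen then, no median moved beyond the spread. The median of all genes was 0.00 with DESeq2 and its size factors, −0.14 at 1 CPM, −0.15 with library size alone, −0.16 and −0.11 with limma, 0.14 with no filter, −0.62 with upper-quartile factors and −0.19 to −0.13 with a library left out. Upper-quartile factors gave 5 higher and 12 lower genes of the unfolded protein response (3 lower with DESeq2), 1 higher lining gene and 0 higher pharyngeal muscle genes. For moulting regulators 2 were higher with DESeq2, its size factors, library size alone and limma, and 1 to 2 with a library left out. Signs turned with upper-quartile factors for pqn-75 (−0.21), pqn-68 (−0.21), pqn-73 (−0.42) and pqn-83 (−0.33), and for pqn-73 without day 10 replicate 1 or 2 (−0.06 each, up to 0.28 with another library left out). Beyond what each change does by construction (fewer genes, another scale), the cause was not tested. The alternatives on protein composition classes were not run. At day 10 the depth limits abu and idpp folds, which rest on few counts.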
